A study of Mus musculus with 4 samples.

Results

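Ciliated airway cells were taken as the barcodes of a mouse lung single-cell matrix that held at least 3 UMIs of *Tmem212* and at least 3 UMIs of *Ccdc153*, a pair of genes used in multiciliated cells. A UMI is a molecular tag that counts 1 captured transcript. Such a barcode also had to show at least 500 genes, at most 10% of its UMIs from mitochondrial genes, and no UMI of *Col1a2*, a fibroblast collagen gene, or of *Ptprc*, the gene of the leukocyte protein CD45. The rule found 190 barcodes, of 9391 that passed the cell filter and 11118 in the matrix. They are described across all genes against 1911 other epithelial barcodes of the same matrix, which passed the same cell filter, held at least 1 UMI of the epithelial adhesion gene *Epcam* and held none of *Tmem212*.

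The cells came from the lungs of tamoxifen-dosed mice about 8 weeks old that carried 1 copy of Gli1-CreERT2 and 1 copy of the Rosa26 mTmG reporter. Gli1-CreERT2 is a recombinase made where the *Gli1* gene is active and switched on by tamoxifen, and mTmG changes from a red to a green fluorescent protein in cells where the recombinase has acted. Cells lacking CD45 and CD31 were sorted, which removes leukocytes and endothelial cells, and profiled by droplet sequencing of transcript 3′ ends. Labels do not differ among the 4 samples, which were taken as 1 group with 65156149 to 74901791 sequenced clusters each, and the single matrix does not tie barcodes to samples. All barcodes were therefore treated as 1 sample: no test between cells was made, no p-value was computed, and every bracketed interval is a 95% interval for counting error alone. The labels name both C57BL/6J and B6D2F1/J as the strain, so none is stated, and they give neither the number of mice nor their sex.

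Multiciliated cells line the conducting airways and beat mucus towards the throat. Each motile cilium grows from a basal body and contains an axoneme, in which doublet microtubules surround a central pair. Outer and inner dynein arms burn ATP to slide the doublets, radial spokes and the central pair govern that sliding, and intraflagellar transport carries the parts along the shaft. The genes for this machine are switched on together during differentiation under Foxj1, the RFX factors, Myb and p73.

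The 190 ciliated barcodes held 2594295 UMIs, and the other epithelial barcodes held 23110799. The median ciliated barcode had 11229.5 UMIs and 3758.5 genes, against 10400 UMIs and 2820 genes in the median other epithelial barcode. Median mitochondrial shares were 3.66% in ciliated barcodes and 3.97% in other epithelial barcodes. Levels are given as CPM, the UMIs of a gene per 1000000 UMIs summed over a set of barcodes, and the fold is the ratio of the CPM in ciliated barcodes to that in other epithelial barcodes. Because each UMI tags a 3′ end, CPM is not divided by gene length. A fold was counted for the 12989 genes with at least 30 UMIs over both sets. Of these, 2927 (22.5%) were at least 2-fold higher, while 2737 (21.1%) were at most 0.5-fold; 790 (6.08%) were at least 10-fold higher, while 594 (4.57%) were at most 0.1-fold. The median gene stood at 1.08-fold, or 0.11 on the log2 scale, and scaling by the median ratio in place of the total moved that median to −0.29.

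The other epithelial barcodes are mostly alveolar, so results that turn on this are also given for gates within them. A club gate, named for the secretory cells of the airway, took the 68 barcodes with at least 5% of UMIs from *Scgb1a1*, the club cell secretory protein gene. *Scgb1a1* itself held 495286 CPM there, and against this gate alone the median of 9236 counted genes was 2.65-fold. A smaller gap to the club gate is below that of the median gene. An AT2 gate, for the surfactant-making type 2 cells of the alveolus, took 1628 barcodes with at least 5% from *Sftpc*, surfactant protein C. An AT1 gate, for the flat type 1 cells, took 139 barcodes with at least 3 UMIs each of *Ager* and *Hopx*, and 76 barcodes fell in no gate. Fibroblast RNA was limited by the rule in ciliated barcodes only, so folds below 1 were also read between cleaner sets. For these, 19 ciliated barcodes with at least 5% of *Scgb1a1* or *Sftpc* were left out, and other epithelial barcodes were kept only with *Col1a2* and *Ptprc* at 0. This comparison of 171 with 1286 barcodes was chosen after seeing the data and is called the cleaner comparison. Its median gene stood at 1.29-fold, and of 11641 genes 29.4% were at least 2-fold higher, while 16.1% were at most 0.5-fold.

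The barcodes were chosen by their UMIs of *Tmem212* (mm10, chr3:27866066-27896368, minus strand) and *Ccdc153* (chr9:44240676-44247306, plus strand), and their levels are a description. *Tmem212* reached 2012 CPM in ciliated barcodes and 0 CPM in the other epithelial barcodes, where the rule set it to 0. *Ccdc153* had 1827 CPM in ciliated barcodes and 1.17 CPM in other epithelial barcodes. Few barcodes lay near the threshold. The lower of both counts was exactly 3 in 2 barcodes inside the rule, with *Foxj1* at 87.6 CPM and *Sftpc* at 165476 CPM. It was 2 in 1 barcode just outside, with *Foxj1* at 190 CPM and *Sftpc* at 209449 CPM. It was 1 in 3 further barcodes, and no barcode had at least 3 UMIs of the one gene and none of the other.

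Both remaining markers of the cell type were present almost throughout. *Foxj1*, the transcription factor that commits a cell to motile cilia (chr11:116330704-116335399, minus strand), had 1358 UMIs in ciliated barcodes and 18 in other epithelial barcodes, or 523 against 0.779 CPM, a 672-fold difference (424 to 1137). Per barcode, scaled to 10000 UMIs, *Foxj1* ranged from 0 over a median of 5.25 to 16.3 in ciliated barcodes, with 3 of 190 at 0. In the gates, 67 of 68 club, 1614 of 1628 AT2 and all 139 AT1 barcodes had none. *Rsph1*, a radial spoke gene (chr17:31255019-31277383, minus strand), had 876 CPM in ciliated and 1.95 CPM in other epithelial barcodes, 450-fold higher (335 to 618), and no ciliated barcode lacked it. With each barcode thinned to 2000 UMIs, *Foxj1* was found in 64.2% of ciliated barcodes (57.0% to 71.0%) and in 0 of 1628 AT2 gate barcodes, which allows up to 0.184%; median depths were 11229.5 and 10368 UMIs.

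**Figure D1:**
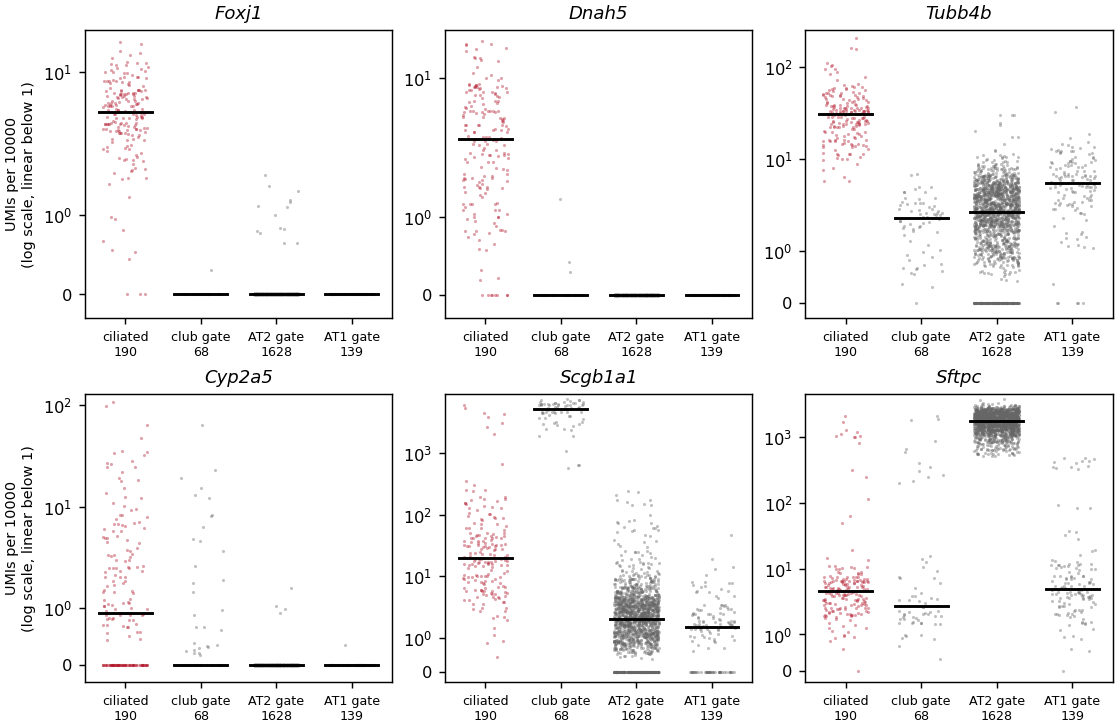
UMIs per 10000 of 6 genes in single barcodes (points; vertical axis logarithmic, linear below 1) of the ciliated set and of the club, AT2 and AT1 gates, with the number of barcodes under each name and the median as a black line. The ciliated medians are 5.25 for Foxj1, 3.67 for Dnah5 and 30.8 for Tubb4b, above every other median shown for these genes, while for Scgb1a1 and Sftpc a few ciliated barcodes lie within the range of the club and AT2 gates, far above the ciliated medians.

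RNA typical of neighbouring cells was also measured in these barcodes. The 10 AT2 markers summed to 14825 CPM in ciliated barcodes and 192540 CPM in other epithelial barcodes. The 10 club markers summed to 68513 CPM in ciliated barcodes and 58478 CPM in other epithelial barcodes. Both sums rested on few ciliated barcodes. *Scgb1a1* made up at least 5% of UMIs in 9 ciliated barcodes, which held 94.7% of its UMIs and had a median depth of 44991 UMIs against 11079 in the remaining ciliated barcodes. *Sftpc* did so in 10 others, which held 88.7% of its UMIs. Scrublet, a doublet caller, marked 11 of these 19 barcodes and 2 of the other 171. Most of the 11 were rich in *Sftpc*. Among those rich in *Scgb1a1*, only the barcodes with 30945 and 25417 UMIs were marked. Without the 19, the AT2 markers summed to 1549 CPM and the club markers to 8574 CPM, against 564976 CPM in the club gate. Whether these barcodes hold a ciliated and a secretory or alveolar cell together was not tested.

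Marker lists of non-epithelial and of further epithelial cells had lower sums in ciliated than in other epithelial barcodes. Fibroblast markers summed to 101 CPM against 3622 CPM in other epithelial barcodes, a difference that the limit on *Col1a2* favours, and the median of the 8 counted members in the cleaner comparison was 0.665-fold. Leukocyte markers summed to 5.78 against 49.1 CPM, where the rule set *Ptprc* to 0 in ciliated barcodes only, with *Cd52*, *Coro1a*, *S100a9*, *Cd79a* and *Tyrobp* also at 0. Of these, *S100a9* had only 4 UMIs over both sets, so its absence tells little. Endothelial markers summed to 51.3 against 211 CPM, with *Tie1* at 0, but the club gate held less, 39.1 CPM. Their median over 8 counted members was 0.914-fold in the cleaner comparison, so the lower endothelial sum was not matched there by a clearly lower median. Smooth muscle and mesothelial markers summed to 15.4 against 326 CPM, with *Upk3b*, *Lrrn4* and *Wt1* at 0. For these the cleaner median, over 5 counted members, was 0.164-fold. Of the basal and neuroendocrine markers, 8 of 10 had no UMI in ciliated barcodes. Among them *Krt5*, *Krt14* and *Chga* had only 5, 2 and 3 UMIs over both sets, so their absence tells little. The tuft cell and ionocyte markers summed to 9.25 CPM in ciliated and 98.7 CPM in other epithelial barcodes. *Cftr* and *Dclk1* held most UMIs of this list, with 1363 and 692 over both sets. *Il25* and *Foxi1* had no UMI in either set. *Pou2f3* and *Trpm5*, at 0 in ciliated barcodes, had only 3 and 1 UMIs over both sets, so their absence tells little. AT1 markers summed to 1204 CPM in ciliated barcodes, against 4363 CPM in other epithelial barcodes and 35308 CPM in the AT1 gate.

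The transcription factors of the cilia programme split into a group that was nearly private to the ciliated barcodes and a group shared across the epithelium. Of 14 factors counted, 8 were at least 2-fold higher, 6 of them at least 10-fold (all genes: 22.5% and 6.08%). None was at most 0.5-fold (all genes: 21.1%), and the list median was 5.14-fold. *Trp73*, which encodes p73, an upstream activator of the programme, had 135 UMIs in ciliated barcodes (52.0 CPM) and none in the 1911 others, at least 401-fold higher against a floor of 3 UMIs over the set. *Myb*, which acts early in the commitment to multiple cilia, had 188 CPM in ciliated and 0.389 CPM in other epithelial barcodes, 484-fold (253 to 1065). *Rfx3* reached 81.7 against 6.88 CPM, 11.9-fold, and *Rfx2* 39.7 against 4.85 CPM, 8.19-fold; both bind the X-box of ciliary genes. *Jazf1*, a zinc finger cofactor gene, had 10.8 against 0.173 CPM.

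Other regulators were also measured in the other epithelial barcodes. *Sox2*, the factor of the conducting airway, had 143 CPM in ciliated barcodes and 4.54 CPM in other epithelial barcodes, but 39.96 CPM in the club gate and 0.38 CPM in the AT2 gate, so its 31.6-fold difference is mostly one from the alveolar barcodes. *Foxa1* stood at 1.54-fold, *Rfx1* at 1.16-fold and *E2f4* at 0.911-fold. *Nkx2-1*, the lung lineage factor, had 162 CPM in ciliated and 255 CPM in other epithelial barcodes (0.637-fold), and in the club gate it had 59.5 CPM.

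Genes that act while a cell amplifies its centrioles were mixed. *Mcidas*, which encodes a Geminin-related starter of the programme, had no UMI in ciliated barcodes and 4 in the others. The others hold 23110799 UMIs against 2594295, so the absence of *Mcidas* tells little. *Gmnc*, of the same family, had 6 UMIs in ciliated barcodes and 10 in the others. *Ccnb2* and *Plk1*, mitotic genes also used in this stage, had none in ciliated barcodes against 155 and 71 UMIs in the other epithelial barcodes, and *Cdk1* had 2.31 CPM against 11.9 CPM. *Deup1*, the scaffold of the deuterosome on which new centrioles form, was found at 28.5 CPM (74 UMIs) in ciliated barcodes and 1 UMI in the others, 659-fold (115 to 26385). *Ccdc78*, also a deuterosome gene, had 221 against 0.13 CPM. *Ccno*, cyclin O, had 11.6 against 5.50 CPM, 2.10-fold (1.36 to 3.15). Of the 15 counted genes of this list, 7 were at least 2-fold higher, while 3 were at most 0.5-fold (all genes: 22.5% and 21.1%).

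Because the programme's members were high together, their promoters were searched for the half-site of the RFX motif, GTTGCC, on either strand in the 250 bases before and 50 after each start in RefSeq. A promoter was listed for 600 of the 790 genes at least 10-fold higher, and 198 of these (33.0%) held the half-site, against 1545 of 10007 promoters of counted genes (15.4%) and 3821 of all 27025 promoters (14.1%). The symmetric 14-letter form, GTTNCC followed after 2 bases by GGNAAC, which can overlap the half-site, was in 14 of the 600 (2.33%), 68 of the 10007 (0.680%) and 143 of all promoters (0.529%). For comparison, the forkhead motif TGTTTAC was in 4.33% of the 600, 3.23% of the 10007 and 4.05% of all promoters, and the general promoter motif CCAAT in 43.0%, 42.5% and 41.1%. A match describes letters and is not evidence of binding.

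The following promoters are shown because they carry the half-site and belong to a gene of the rule (*Ccdc153*), a gene with the 14-letter form (*Pifo*) and the 3 genes of highest ciliated CPM among those at least 10-fold higher whose promoter holds the half-site. They are RefSeq sequences of GRCm38.p6, read 5′ to 3′ on the strand of the gene. Capitals mark GTTGCC or its reverse complement GGCAAC. The regions are chr9:44240427-44240726 on the plus strand for *Ccdc153*, chr3:106001448-106001747 on the minus strand for *Pifo*, chr8:116504765-116505064 on the plus strand for *Dynlrb2*, chr4:41507715-41508014 on the minus strand for 1110017D15Rik, and chr11:58801911-58802210 on the minus strand for *Fam183b*.
Ccdc153: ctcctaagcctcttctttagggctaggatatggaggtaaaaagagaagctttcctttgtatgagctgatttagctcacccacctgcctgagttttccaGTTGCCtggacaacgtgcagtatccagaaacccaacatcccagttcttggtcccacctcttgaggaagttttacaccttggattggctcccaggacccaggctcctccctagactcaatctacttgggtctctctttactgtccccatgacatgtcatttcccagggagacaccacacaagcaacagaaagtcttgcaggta
Pifo: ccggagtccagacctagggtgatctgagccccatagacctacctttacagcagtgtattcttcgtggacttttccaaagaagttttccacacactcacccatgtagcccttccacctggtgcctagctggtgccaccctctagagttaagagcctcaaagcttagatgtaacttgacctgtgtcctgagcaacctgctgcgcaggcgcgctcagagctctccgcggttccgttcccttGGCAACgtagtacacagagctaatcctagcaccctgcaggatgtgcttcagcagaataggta
Dynlrb2: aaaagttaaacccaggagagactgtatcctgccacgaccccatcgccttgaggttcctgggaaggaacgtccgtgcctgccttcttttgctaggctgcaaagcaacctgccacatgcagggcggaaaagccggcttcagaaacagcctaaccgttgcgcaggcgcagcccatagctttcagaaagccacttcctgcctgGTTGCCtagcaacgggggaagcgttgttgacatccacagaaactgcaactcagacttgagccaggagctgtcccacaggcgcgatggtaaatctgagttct
1110017D15Rik: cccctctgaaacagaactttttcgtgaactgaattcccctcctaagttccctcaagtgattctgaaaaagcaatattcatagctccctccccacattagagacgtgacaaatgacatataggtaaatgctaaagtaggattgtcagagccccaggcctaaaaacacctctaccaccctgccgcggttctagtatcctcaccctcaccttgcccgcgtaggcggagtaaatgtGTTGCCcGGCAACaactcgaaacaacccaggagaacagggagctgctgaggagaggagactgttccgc
Fam183b: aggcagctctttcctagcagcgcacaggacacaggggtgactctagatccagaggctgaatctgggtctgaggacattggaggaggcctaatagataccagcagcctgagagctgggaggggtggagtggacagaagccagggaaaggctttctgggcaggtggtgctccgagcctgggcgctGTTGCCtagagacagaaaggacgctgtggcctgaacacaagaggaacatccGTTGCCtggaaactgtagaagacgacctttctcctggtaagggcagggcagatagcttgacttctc
The half-site occurred once in *Ccdc153*, *Pifo* and *Dynlrb2*, at different distances from the start. In 1110017D15Rik a forward and a reverse copy stood 1 base apart, and *Fam183b* had 2 forward copies. These genes reached 1827 CPM (*Ccdc153*), 599 CPM (*Pifo*), 1541 CPM (*Dynlrb2*), 1487 CPM (1110017D15Rik) and 1256 CPM (*Fam183b*) in ciliated barcodes, against 1.17, 1.04, 22.5, 1.82 and 0.909 CPM in that order of genes in other epithelial barcodes.

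Basal body and transition zone genes were higher, but most were also measurable in the other epithelium. Of 25 counted, 23 were at least 2-fold higher, 12 of them at least 10-fold (all genes: 22.5% and 6.08%). None was at most 0.5-fold (all genes: 21.1%), and the median was 9.09-fold. *Cetn2*, a centrin of every centriole, had 466 CPM in ciliated and 32.9 CPM in other epithelial barcodes, 14.2-fold. *Cetn4* had 282 against 2.51 CPM, 112-fold (86.0 to 150). The transition zone genes *Cep290* (298 against 16.2 CPM) and *Rpgrip1l* (139 against 4.80 CPM), which form the gate at the base of the cilium, were 18.4-fold and 28.9-fold higher. *Ccdc170* had 390 UMIs in ciliated barcodes (150 CPM) and none in the others, at least 1158-fold. *Ofd1*, which is needed by primary and motile cilia alike, had 16.19 CPM in ciliated and 16.18 CPM in other epithelial barcodes, 1.0004-fold (0.709 to 1.38).

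The axoneme set the ciliated barcodes apart most widely. Its lists cover outer arms, inner arms with the nexin-dynein regulatory complex and the ruler proteins, radial spokes, central pair and doublet proteins. In them 131 genes were counted, and all but 3 were at least 2-fold higher (all genes: 22.5%). A gene nearly silent elsewhere can pass the 30-UMI filter only through the ciliated barcodes, so these counts describe the lists and are no support for them. The plot of CPM in both sets shows this block standing off the diagonal.

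**Figure D2:**
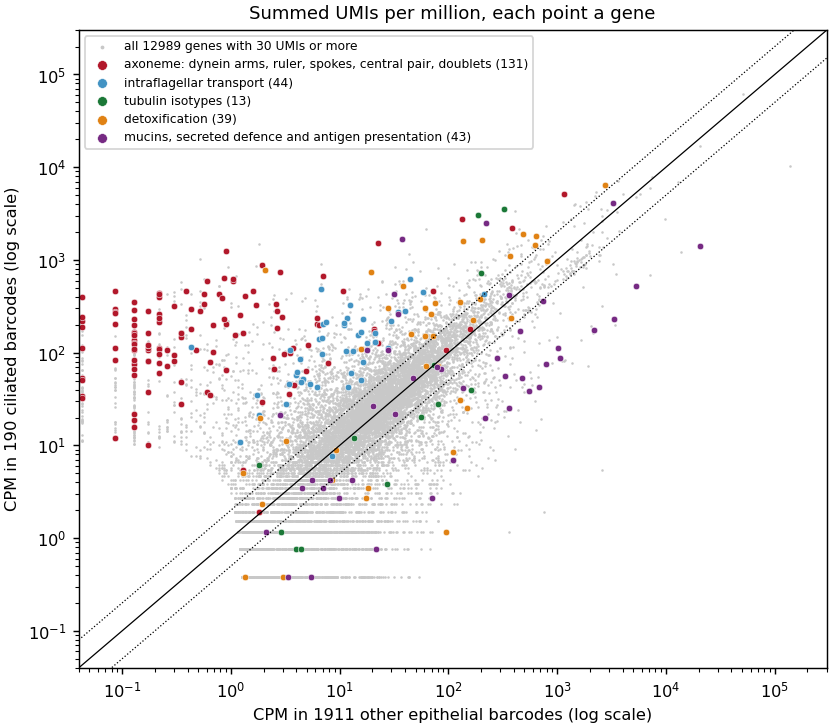
CPM of 12989 genes in 190 ciliated barcodes (vertical) against CPM in 1911 other epithelial barcodes (horizontal), both on log scales, with 5 gene lists in colour, the line of equal CPM and dotted lines at 2-fold and 0.5-fold; where a set has no UMI, the gene is drawn at 3 UMIs over it. Axoneme genes lie mostly above and to the left of the grey cloud, while mucin, defence and antigen presentation genes lie mostly below the diagonal.

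Outer dynein arms, which supply most of the beat force, were read from heavy chains down to light chains. *Dnah5* (chr15:28203752-28472052, plus strand) had 436 CPM in ciliated barcodes and 0.216 CPM (5 UMIs) in other epithelial barcodes, 2013-fold (860 to 6212). *Dnah9* had 222 CPM (577 UMIs) against 1 UMI, 5140-fold (919 to 203370), and *Dnah11* 114 CPM against 2 UMIs. *Dnah8*, the heavy chain best known from sperm, had 5.396 against 1.30 CPM. The intermediate chains *Dnaic1* (155 CPM) and *Dnaic2* (168 CPM) each had 3 UMIs in the other epithelial barcodes. The docking genes *Armc4* (82.5 against 0.0865 CPM) and *Ccdc151* (76.3 CPM against 0 UMIs, at least 588-fold) followed the same pattern. Single barcodes varied: *Dnah5* ranged from 0 over a median of 3.67 to 18.3 UMIs per 10000 in ciliated barcodes, 8 of 190 had none, and 65 of 68 club and all 1628 AT2 and 139 AT1 gate barcodes had none.

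Light chains came in pairs that differed in how private they were. *Dynlrb2*, a roadblock light chain, had 1541 CPM in ciliated and 22.5 CPM in other epithelial barcodes, 68.5-fold (62.5 to 75.2). Its paralog *Dynlrb1*, which serves cytoplasmic dynein, had 182 against 157 CPM, 1.16-fold (1.05 to 1.27). *Dynll1* had 2223 against 386 CPM, 5.76-fold, and its paralog *Dynll2* 107 against 94.6 CPM, 1.13-fold. *Tctex1d4*, a Tctex-type light chain gene, had 460 CPM (1193 UMIs) against 2 UMIs, 5314-fold (1468 to 43929). Of 20 outer arm genes counted, 18 were at least 2-fold higher (all genes: 22.5%). The exceptions were *Dynlrb1* and *Dynll2*, and the list median was 81.7-fold. *Calml4*, a gene of this list, had 669 against 7.05 CPM.

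All 35 counted genes of the inner arms, the nexin-dynein regulatory complex and the ruler proteins were at least 10-fold higher (all genes: 6.08%). The median was 557-fold. Among heavy chains, *Dnah12* had 428 CPM in ciliated barcodes and 0.563 CPM in other epithelial barcodes, *Dnah6* 296 against 0.0865 CPM, *Dnah3* 217 against 0.216 CPM and *Dnah10* 126 CPM against 0 UMIs. *Dnah7a*, *Dnah7b* and *Dnah7c* had 138, 78.6 and 53.2 CPM in ciliated barcodes; they are near-identical copies among which reads can be split, so their separate levels are uncertain. *Ccdc39* and *Ccdc40*, which set the repeat spacing along the doublet, had 434 and 199 CPM in ciliated barcodes against 0.779 and 0.13 CPM in other epithelial barcodes. *Drc1*, of the link between doublets, had 273 against 0.0865 CPM. The smallest folds in this list were 32.4 for *Gas8* and 37.7 for *Cfap43*, each with 144 UMIs in the other epithelial barcodes; for *Cfap43* the AT1 gate had 53.8 CPM and the AT2 gate 2.99 CPM.

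All 16 counted radial spoke genes and all 22 counted central pair genes were also at least 10-fold higher (all genes: 6.08%). The list medians were 361-fold and 448-fold. The spoke head gene *Rsph4a* (chr10:33905111-33916021, plus strand) had 241 CPM in ciliated barcodes and 1 UMI in other epithelial barcodes, and *Rsph9* had 459 against 10.7 CPM, 42.8-fold. *Rsph6a*, a relative of *Rsph4a* known from sperm, had no UMI in either set. In the central pair, *Spag17* had 397 CPM (1030 UMIs) against 1 UMI, 9176-fold (1643 to 362763), and *Hydin*, a giant projection protein gene, 262 against 0.216 CPM. The paralogs *Spag6l* and *Spag6* differed: *Spag6l* had 696 UMIs in ciliated barcodes and 2 in the others, while *Spag6* had 1 and 2. *Stk36*, at 35.8 against 3.46 CPM, had the smallest fold of this list, 10.4.

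Proteins of the doublet wall were among the most abundant of the axoneme. *Tppp3*, a tubulin polymerization-promoting gene, had 2769 CPM in ciliated and 134 CPM in other epithelial barcodes, 20.6-fold, and 700 CPM in the AT1 gate. *Fam183b* had 1256 against 0.909 CPM, *Cfap126*, also called Flattop, 746 against 2.81 CPM, *Meig1* 628 against 1.04 CPM and *Pifo* 599 against 1.04 CPM. The tektins *Tekt1* and *Tekt4*, filament proteins inside the doublet, had 296 and 334 CPM in ciliated barcodes against 0.433 and 0.563 CPM in other epithelial barcodes. Of 38 counted, 37 were at least 2-fold higher and 34 at least 10-fold (all genes: 22.5% and 6.08%). *Tekt5* was the exception, with 5 UMIs in ciliated barcodes and 42 in the others (1.06-fold, 0.327 to 2.68).

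**Figure D3:**
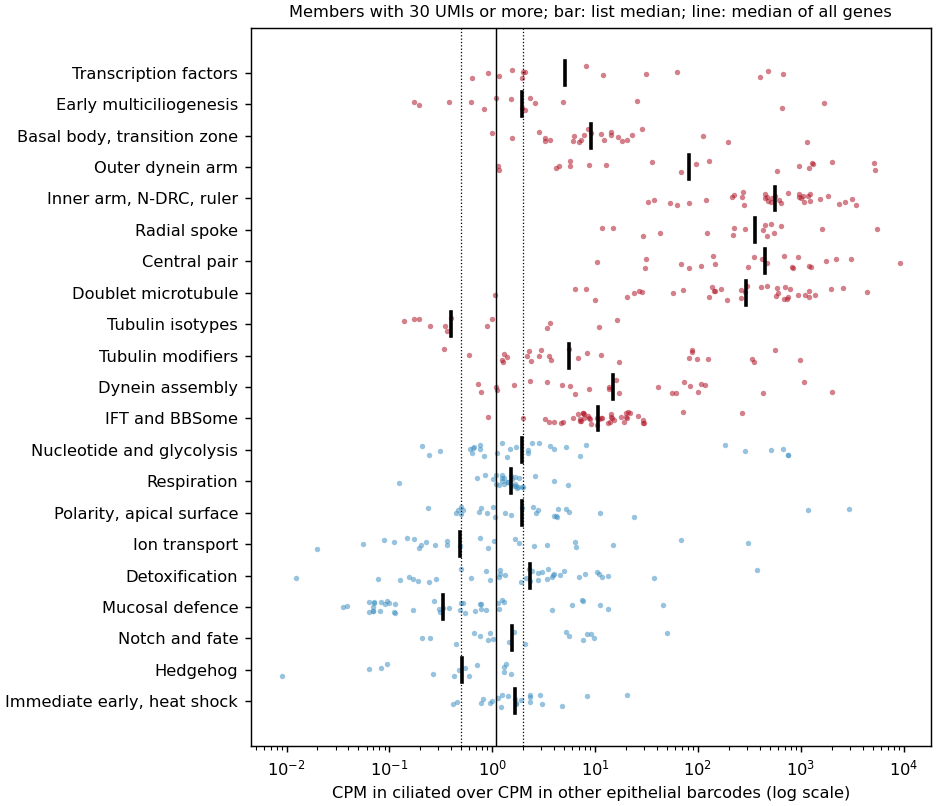
Fold of each counted member of 21 gene lists (CPM in ciliated over CPM in other epithelial barcodes, log scale; a member with no UMI in a set is drawn at its bound), with cilia lists in red, other lists in blue, list medians as bars, the median of all genes as a solid line and 2-fold and 0.5-fold as dotted lines. Medians reach 557-fold for the inner arm list. They lie between 0.329 and 5.57 for transcription factors, early multiciliogenesis, tubulin isotypes, tubulin modifiers and the lists outside cilia.

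Tubulin itself behaved unlike the proteins that decorate it. Only *Tuba1a*, *Tuba1b*, *Tubb4b* and *Tubd1* of 13 counted isotypes were at least 2-fold higher, while 7 were at most 0.5-fold (all genes: 22.5% and 21.1%). The median was 0.399-fold. Against the club gate alone it was 1.75-fold, where the median of all genes was 2.65-fold. *Tubb4b* (chr2:25222160-25224702, minus strand), the beta-tubulin of cilia, had 3588 CPM in ciliated and 328 CPM in other epithelial barcodes, 10.9-fold (10.6 to 11.3). In single barcodes it ranged from 5.82 over a median of 30.8 to 208 UMIs per 10000, against medians of 2.31 in the club, 2.64 in the AT2 and 5.50 in the AT1 gate. *Tuba1a* (chr15:98949837-98953703, minus strand) had 3066 against 187 CPM, 16.4-fold (15.8 to 16.999), and 79.7-fold in the cleaner comparison. *Tuba1b* had 726 against 199 CPM, 3.66-fold, and *Tuba1c* 73.6 against 73.9 CPM.

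Other beta-tubulins were lower. *Tubb5*, the widespread isotype, had 39.7 CPM in ciliated and 160 CPM in other epithelial barcodes, 0.248-fold (0.202 to 0.302), and 0.306-fold in the cleaner comparison. For *Tubb2a* (0.367-fold), *Tubb2b* (0.173-fold) and *Tubb6* (0.14-fold) the cleaner comparison gave 0.757, 0.826 and 0.858. With it only 3 of 11 isotypes were at most 0.5-fold (all genes: 16.1%), with a median of 0.886-fold. Isotypes are close in sequence, and counting could split reads among them. In the club gate *Tubb5* had 61.6 CPM and *Tubb4b* 230 CPM.

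**Figure D4:**
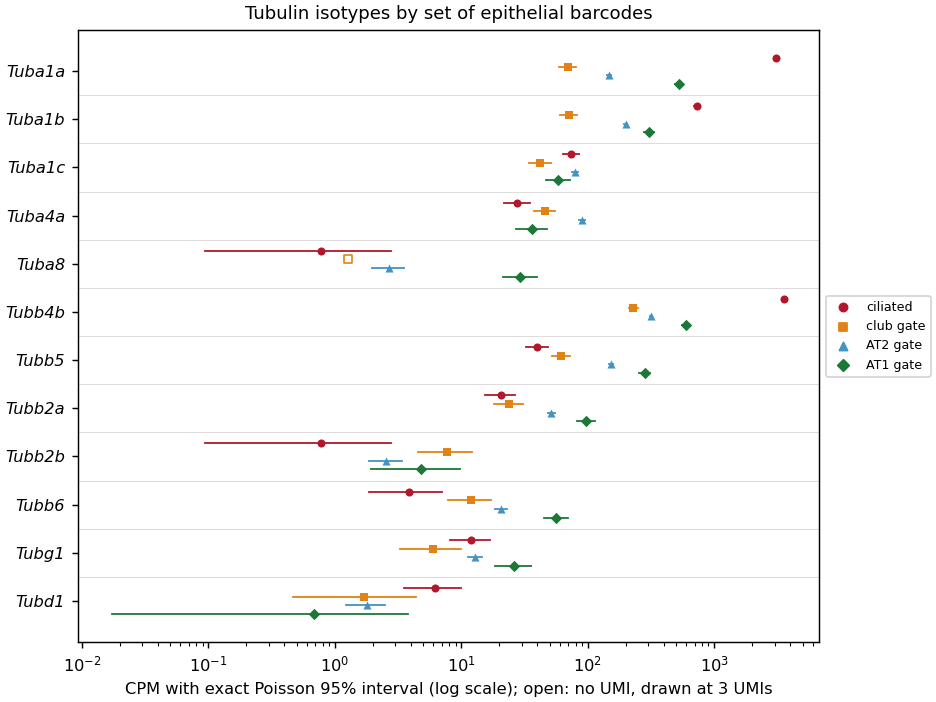
CPM with exact Poisson 95% intervals (horizontal, log scale) of 12 tubulin genes in ciliated barcodes and in the club, AT2 and AT1 gates; an open symbol marks a set with no UMI, drawn at 3 UMIs. Tuba1a, Tuba1b, Tubb4b and Tubd1 have their highest value in ciliated barcodes, and Tubb5, Tubb6 and Tubb2a their lowest.

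Enzymes that modify axonemal tubulin were higher in most cases. Of 27 counted, 21 were at least 2-fold higher, 11 at least 10-fold, and 1 at most 0.5-fold (all genes: 22.5%, 6.08% and 21.1%). *Ttll3*, a glycylase, had 135 CPM in ciliated and 1.56 CPM in other epithelial barcodes, 86.9-fold (61.5 to 126). The glutamylase genes *Ttll6* (43.6 CPM) and *Ttll9* (45.9 CPM) had no UMI in the other epithelial barcodes, at least 336-fold and 353-fold higher. *Agbl2*, which removes glutamate chains, had 76.3 against 0.779 CPM. *Ttll7* went the other way, with 20.4 against 59.8 CPM, 0.342-fold (0.255 to 0.450). The ciliary kinesins *Kif9* (70.2 against 0.563 CPM) and *Kif6* (42.4 CPM against 1 UMI) belonged to the higher group.

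Dynein arms are assembled in the cytoplasm before they enter the cilium. *Dnaaf1* had 87.5 CPM in ciliated and 0.0433 CPM in other epithelial barcodes, *Lrrc6* 141 against 0.13 CPM, *Zmynd10* 197 against 2.34 CPM and *Dnaaf3* 82.5 against 0.822 CPM. General chaperones that take part were also higher, though far less exclusive. The AAA ATPase genes *Ruvbl1* and *Ruvbl2* had 173 and 232 CPM in ciliated barcodes against 19.8 and 16.96 CPM in other epithelial barcodes, and *Hsp90aa1* had 2166 against 449 CPM, 4.82-fold (4.67 to 4.98). Of 26 counted genes, 21 were at least 2-fold higher, 15 of them at least 10-fold (all genes: 22.5% and 6.08%). The median was 14.8-fold.

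Intraflagellar transport and BBSome genes, which primary cilia use as well, were higher by a narrower range. Of 44 counted, 42 were at least 2-fold higher, 24 at least 10-fold, and none at most 0.5-fold (all genes: 22.5%, 6.08% and 21.1%). The median was 10.7-fold. *Ift43* had 627 CPM in ciliated and 44.0 CPM in other epithelial barcodes, *Ift88* 205 against 6.97 CPM (29.5-fold) and *Traf3ip1*, which encodes IFT54, 491 against 6.79 CPM (72.3-fold). The largest fold came from *Ttc21a*, at 116 against 0.433 CPM, 269-fold, while its paralog *Ttc21b* stood at 0.904-fold. The motors followed: *Dync2h1*, of retrograde transport, had 211 against 10.9 CPM and *Kif3a*, of anterograde transport, 165 against 15.8 CPM. *Arl3*, a GTPase that releases ciliary cargo, had 446 against 58.4 CPM. Over all cilia lists together, 323 genes were found in the matrix and 293 were counted. At least 2-fold higher were 252, while 11 were at most 0.5-fold (all genes: 22.5% and 21.1%), and the median was 28.4-fold.

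ATP handling within the cilium and energy supply of the cell gave different pictures. Adenylate kinases and nucleoside diphosphate kinases of the axoneme were nearly private: *Ak7* had 421 CPM in ciliated and 0.563 CPM in other epithelial barcodes, 748-fold (435 to 1409), *Nme9* 519 against 0.779 CPM, *Nme5* 464 against 1.601 CPM and *Ak9* 136 against 0.736 CPM. *Eno4*, an enolase of flagella, had 131 against 0.173 CPM. *Ckb*, the brain-type creatine kinase, had 405 against 49.7 CPM, and *Ldhb* 753 against 187 CPM. Common glycolytic genes lay near the other epithelium or below it: *Gapdh* at 1.49-fold, *Pkm* at 0.636-fold, *Hk2* at 0.242-fold and *Aldoc* at 0.209-fold. Of the 30 genes counted, 15 were at least 2-fold higher, while 3 were at most 0.5-fold (all genes: 22.5% and 21.1%).

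Genes of mitochondrial respiration were 1.52-fold higher at the median, against 1.08-fold for all genes. Of 29 genes, 3 reached 2-fold, where 22.5% of all genes did, and 7 of 29 did in the cleaner comparison, where 29.4% of all genes did. The 3 were *Cox5a* (524 against 200 CPM), *Sdhd* (209 against 52.2 CPM) and *Ppargc1a*, a regulator of mitochondrial biogenesis (39.7 against 7.23 CPM). *Cox4i2*, an isoform used under low oxygen, was at 1.16 against 9.39 CPM, 0.123-fold.

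At the apical surface, cilia must stand in rows and point one way. The planar polarity effectors *Wdpcp* (63.6 against 2.68 CPM, 23.7-fold), *Intu* (44.3 against 3.98 CPM, 11.1-fold) and *Fuz* (61.7 against 11.03 CPM, 5.59-fold) were higher in ciliated barcodes. The core polarity genes were low in both sets and mixed: *Vangl1* stood at 4.19-fold, *Fzd3* at 4.23-fold, *Celsr1* at 2.76-fold and *Fzd6* at 2.64-fold, but *Vangl2* at 0.441-fold with 5 UMIs in ciliated barcodes. *Ezr*, which links the apical membrane to actin, had 1023 CPM in ciliated and 255 CPM in other epithelial barcodes. The cadherin-like genes *Cdhr3*, whose human protein is a receptor of rhinovirus C, and *Cdhr4* had 360 and 253 CPM in ciliated barcodes against 0.303 and 0.0865 CPM in other epithelial barcodes. Of 27 genes, 13 were at least 2-fold higher, while 5 were at most 0.5-fold (all genes: 22.5% and 21.1%).

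Ion and water channels were lower more often than higher. Of 25 counted, 7 were at least 2-fold higher, while 13 were at most 0.5-fold (all genes: 22.5% and 21.1%). The median was 0.482-fold. *Cftr*, the chloride channel of cystic fibrosis, had 3 UMIs in ciliated barcodes (1.16 CPM) and 58.8 CPM in other epithelial barcodes, 0.0197-fold (0.00405 to 0.0575). Its level was 71.8 CPM in the AT2 gate but 4.68 CPM in the club gate. The sodium channel subunits separated, with *Scnn1a* at 280 against 110 CPM (2.54-fold), *Scnn1b* at 8.48 against 42.0 CPM and *Scnn1g* at 6.17 against 41.1 CPM. *Slc12a2*, the chloride loader, had 48.6 against 247 CPM, and *Aqp5* 74.0 against 672 CPM. Higher in ciliated barcodes were *Aqp4* (36.6 against 2.47 CPM, with 19.1 CPM in the club gate), *Slc4a8*, a bicarbonate transporter gene (54.0 against 0.779 CPM, 69.3-fold), and *Kcnrg*, a regulator of potassium channels (308 against 0.995 CPM, 309-fold).

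Enzymes that clear xenobiotics and oxidants were prominent, and some exceeded the club gate, against which the median of all genes was 2.65-fold. *Aldh1a1* fell short of that median. *Cyp2s1*, a cytochrome P450 (chr7:25802475-25816913, minus strand), had 779 CPM in ciliated and 2.08 CPM in other epithelial barcodes, 375-fold (282 to 511), with 8.08 CPM in the club gate. *Aldh3b1*, an aldehyde dehydrogenase, had 739 against 19.6 CPM and 15.7 CPM in the club gate. *Gstm1*, a glutathione transferase, had 1641 against 205 CPM, with 454 CPM in the club gate, and *Aldh1a1* had 1598 against 138 CPM, with 863 CPM in the club gate. *Cbr2*, carbonyl reductase, was at 6433 CPM in ciliated barcodes, 2769 CPM in other epithelial barcodes and 6514 CPM in the club gate. Lower genes included *Sod3*, at 1.16 against 94.2 CPM, and *Gpx3*, at 8.48 against 109 CPM, although *Gpx3* in the cleaner comparison stood at 0.49-fold. Of 39 genes, 22 were at least 2-fold higher, while 8 were at most 0.5-fold (all genes: 22.5% and 21.1%). The median was 2.32-fold.

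*Cyp2f2*, a P450 typical of club cells, had 1919 CPM in ciliated barcodes, 1712 CPM when the 19 barcodes rich in *Scgb1a1* or *Sftpc* were left out, 485 CPM in other epithelial barcodes and 4221 CPM in the club gate. Per 1000 *Scgb1a1* UMIs, all ciliated barcodes held 31.3 of *Cyp2f2* and 26.0 of *Aldh1a1*, and those without the 19 held 421 and 426. The club gate held 8.52 and 1.74, and the AT2 gate 154 and 97.8. The AT1 gate, with only 293 *Scgb1a1* UMIs, held 99.0 and 997, so its *Aldh1a1* value was above that of ciliated barcodes. The gap to the club gate follows in part from the rules. Barcodes high in *Scgb1a1* were left out with the 19 and required in the club gate. For *Scgb3a2*, a further secretory gene, ciliated barcodes without the 19 held 29.3 per 1000 *Scgb1a1* UMIs against 52.4 in the club gate. The part of free club cell RNA in these levels was not tested.

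*Cyp2a5* (chr7:26835305-26843548, plus strand) was spread unevenly. It had 518 CPM in ciliated, 38.5 CPM in other epithelial barcodes and 376 CPM in the club gate. Single ciliated barcodes ranged from 0 over a median of 0.917 to 105 UMIs per 10000, 71 of 190 had none, and the 5 highest held 36.4% of its UMIs. Thinned to 2000 UMIs, 30% of ciliated barcodes held a UMI (23.6% to 37.1%), against 14.7% in the club gate (7.28% to 25.4%) and 0.0614% in the AT2 gate.

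Mucosal defence genes were mostly lower, and the AT2 gate carried most of that difference. Of 43 counted, 25 were at most 0.5-fold, 13 of them at most 0.1-fold (all genes: 21.1% and 4.57%). At least 2-fold higher were 7 (all genes: 22.5%). The median was 0.329-fold, and 1.21-fold against the AT1 gate alone. *Lyz2*, lysozyme, had 1422 CPM in ciliated and 20679 CPM in other epithelial barcodes (168 CPM in ciliated barcodes without the 19 rich ones). *Cd74*, the chaperone of class II antigen presentation, had 231 against 3309 CPM, and *H2-Aa* 75.6 against 790 CPM. The class I genes *H2-K1* (172 against 451 CPM, 0.382-fold) and *B2m* (86.7 against 280 CPM, 0.310-fold) were lower by less, and the club gate had 166 and 93.5 CPM of them. *Bpifa1*, a secreted airway defence gene, had 113 CPM in ciliated, 1010 CPM in other epithelial barcodes and 9907 CPM in the club gate, but 1.30 CPM in the AT2 gate. *Muc5b*, the secreted airway mucin, had 53.2 CPM in ciliated barcodes, 0.982 CPM without the 19 rich barcodes, and 462 CPM in the club gate.

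Other surface and defence genes were higher in ciliated barcodes than in every gate. *Cd24a*, a surface glycoprotein gene, had 1699 CPM in ciliated and 37.2 CPM in other epithelial barcodes, 45.6-fold (42.4 to 49.2), and 151 CPM in the club gate. *Sec14l3*, a lipid-binding protein gene, had 2520 against 224 CPM, with 1145 CPM in the AT1 gate. The chemokine gene *Cxcl17* had 429 against 31.8 CPM and 193 CPM in the club gate, less than the 2.65-fold gap of the median gene there. *Ifitm1* had 263 against 34.4 CPM and the tethered mucin *Muc4* 106 against 17.9 CPM.

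**Figure D5:**
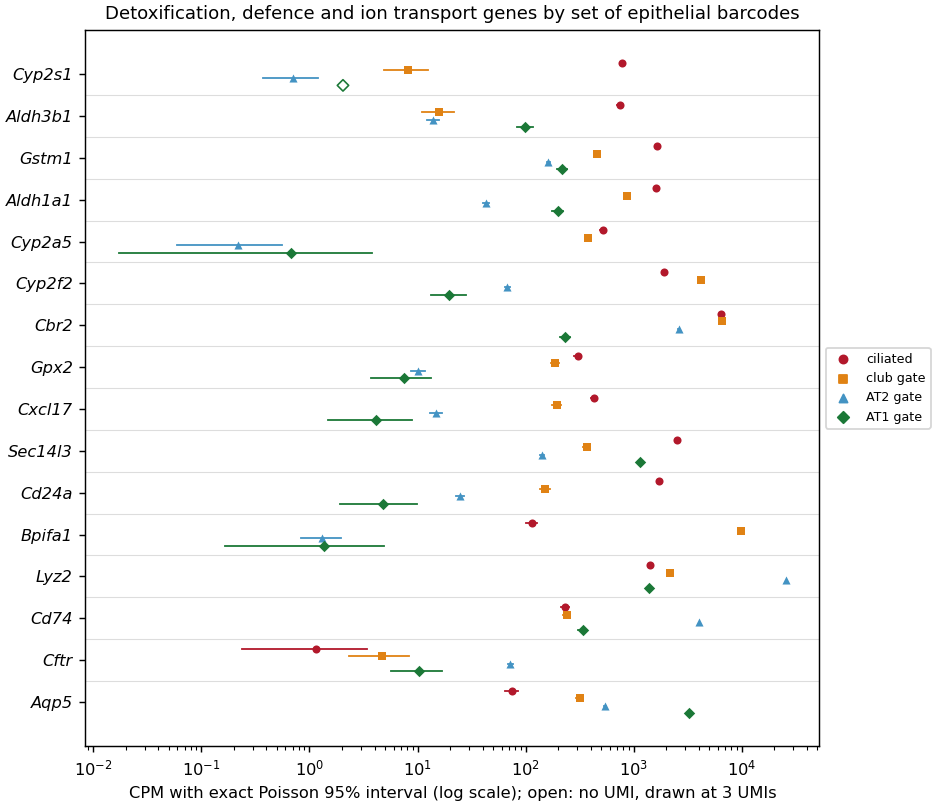
CPM with exact Poisson 95% intervals (horizontal, log scale) of 16 detoxification, defence and transport genes in ciliated barcodes and in the club, AT2 and AT1 gates; an open symbol marks a set with no UMI, drawn at 3 UMIs. Cyp2s1, Aldh3b1 and Cd24a are highest in ciliated barcodes at 779, 739 and 1699 CPM, Bpifa1 is highest in the club gate, and Lyz2, Cd74 and Cftr in the AT2 gate.

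General epithelial genes were present, and several keratins and claudins were higher. *Krt8* had 1491 CPM in ciliated and 345 CPM in other epithelial barcodes, *Krt18* 1075 against 352 CPM, *Cldn3* 1468 against 464 CPM and *Cldn7* 613 against 174 CPM. *Cldn18*, the claudin of the alveolus, had 271 against 1064 CPM. Of 18 counted genes 9 were at least 2-fold higher, while 4 were at most 0.5-fold (all genes: 22.5% and 21.1%).

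Notch signalling holds airway progenitors back from the ciliated fate through ligands on neighbouring cells. Both Jagged ligand genes were higher in ciliated barcodes: *Jag1* had 182 against 33.0 CPM, 5.53-fold (4.92 to 6.21), and *Jag2* 49.3 against 5.37 CPM, 9.20-fold (7.13 to 11.9). *Dll1* had no UMI in ciliated barcodes and 10 in the others, which hold far more UMIs in total, so its absence tells little. The receptors *Notch1* and *Notch2* stood at 1.47-fold and 0.673-fold. The target *Hes1* had 771 CPM in ciliated and 148 CPM in other epithelial barcodes, *Hes6*, which opposes Hes1, 342 against 34.7 CPM, and *Lfng*, which modifies Notch receptors, 41.6 against 0.822 CPM, 50.6-fold (30.9 to 87.4). Of 18 genes counted, 8 were at least 2-fold higher (22.5% of all genes were), while 3 were at most 0.5-fold (21.1% of all genes), with a median of 1.56-fold. In the cleaner comparison, 9 of 14 were at least 2-fold higher and 1 was at most 0.5-fold (all genes: 29.4% and 16.1%). The median there was 4.79-fold.

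Hedgehog genes and the reporter were read because the mice carry a Gli1-driven recombinase. *Gli1* (chr10:127329882-127341974, minus strand) had no UMI in ciliated barcodes, which allows up to 1.16 CPM by the 3-UMI floor, and 45 UMIs (1.95 CPM) in other epithelial barcodes. *Shh*, a ligand, had 29 UMIs in ciliated barcodes (11.2 CPM) and 8.65 CPM in other epithelial barcodes, 1.29-fold (0.843 to 1.91), and *Ihh* had 7 and 3 UMIs. *Ptch1*, the receptor, had 17.3 against 36.3 CPM, 0.478-fold, but 0.8289-fold in the cleaner comparison. *Egfp*, the green reporter transcript, had 48.6 CPM in ciliated and 213 CPM in other epithelial barcodes, 0.228-fold (0.189 to 0.272), and 0.612-fold in the cleaner comparison; TdTomato had 37.0 against 30.5 CPM. None of the 14 counted hedgehog genes was at least 2-fold higher, while 7 were at most 0.5-fold (all genes: 22.5% and 21.1%). In the cleaner comparison 1 of 9 was at least 2-fold higher, while 1 was at most 0.5-fold (all genes: 29.4% and 16.1%). Fibroblast markers summed to 3622 CPM in the other epithelial barcodes, and their part in the lower values was not tested beyond that comparison.

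Immediate early genes, which cell dissociation can induce, were abundant in both sets. *Fos* had 5352 CPM in ciliated and 2293 CPM in other epithelial barcodes, *Atf3* 1638 against 540 CPM and *Jun* 2489 against 1757 CPM. *Hsph1*, a heat shock gene, had 147 against 7.18 CPM, 20.5-fold (17.04 to 24.7), while *Hspa1b* had 8.48 against 20.5 CPM. Of 22 genes, 8 were at least 2-fold higher, while 2 were at most 0.5-fold (all genes: 22.5% and 21.1%). The median was 1.68-fold. In the cleaner comparison 14 of 22 were at least 2-fold higher and none was at most 0.5-fold (all genes: 29.4% and 16.1%). The median there was 2.56-fold. Among single ciliated barcodes *Fos* ranged from 0 over a median of 53.5 to 184 UMIs per 10000, against medians of 7.92 in the club, 15.9 in the AT2 and 13.6 in the AT1 gate. Across the 171 ciliated barcodes without the rich ones, the highest Spearman correlations among 1651 genes joined such genes, 0.691 for *Jun* with *Fos*, 0.662 for *Atf3* with *Ier2* and 0.646 for *Junb* with *Egr1*. These values share each barcode's library and depth and are a description.

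Outside the lists, the 20 highest folds belonged to *Agr3*, *Rp1*, *Fam216b*, *Morn3*, *Erich3*, *Hs6st2*, *Barx2*, AU040972, Gm281, Gm28729, *Cdkl4*, *Elmod1*, *Sntn*, Gm867, D430036J16Rik, *Kcnk12*, *Kndc1*, *Spaca9*, Gm19935 and *Fam81b*. *Agr3*, of the protein disulfide isomerase family, had 203 CPM (527 UMIs) in ciliated barcodes and 1 UMI in other epithelial barcodes, 4695-fold (839 to 185777). *Sntn*, sentan, a protein of the ciliary tip, had 579 against 0.346 CPM, 1671-fold (846 to 3879), and *Barx2*, a homeobox gene, 102 CPM against 1 UMI. AU040972 is annotated as an antisense RNA (chr11:79481719-79484031, minus strand), and had 1029 against 0.519 CPM, 1982-fold (1133 to 3841); strand use in counting is not given in the sources used here, so its reads cannot be told apart from those of an overlapping gene. Among the 10 lowest folds, *Igkc*, *Igha* and *Jchain* are antibody genes whose UMIs in the comparison set lay mostly in few barcodes, and *Lamb3*, a laminin gene, had 0.771 against 67.7 CPM.

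Spread within the ciliated set was read for the 30 genes of highest ciliated CPM among those at least 10-fold higher. Barcodes were thinned to 2000 UMIs and the Fano factor, the variance divided by the mean, was taken; sampling alone gives a value near 1, and where a gene averages only a few UMIs a value near 1 cannot show that barcodes are alike. It ranged from 0.966 for *Ift43* to 5.004 for AU040972, with a median of 1.22. *Foxj1* had 1.18, *Rsph1* 1.22 and *Dnah5* 1.17. *Tubb4b* (a mean of 7.39 UMIs per thinned barcode) had 4.89 and *Tuba1a* (6.4 UMIs) 2.38. AU040972 was found in 55.8% of thinned ciliated barcodes (48.4% to 63.0%), against 0.123% in the AT2 gate, and its 5 highest barcodes held 24.9% of its UMIs. Of the 30 genes, 9 were found in at least 90% of thinned barcodes.

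The authors' deposited table lists 17 clusters without names. In the authors' deposited table, *Tmem212* had its highest log2 fold change in cluster 13, at 8.50. For the same cluster the authors' deposited table gives *Foxj1* a log2 fold change of 8.13, *Gli1* one of −2.23 with an adjusted p of 0.00266, and *Egfp* one of −2.62 with an adjusted p of 3.49e-05. The set each cluster was compared with is not given in the sources used here.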

How the data were processed

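Cells from mouse lung were profiled by droplet RNA sequencing in 4 samples of 1 group. The authors deposited 1 matrix of unnormalized UMI counts, made with Cell Ranger 3.0.0 on mm10 per the submitters' processing notes; the annotation release is not given in the sources used here. Per cluster and gene, the authors' deposited table lists a log2 fold change and its adjusted p-value; it was used only where named. The deposited run statistics give clusters passing filter per sample, which stand for depth. The matrix has no column of another sample (0 left unused), its barcodes carry 1 suffix, and barcodes could not be tied to samples.

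Kept barcodes had 500 genes or more, with a mitochondrial share of UMIs no higher than 10%, and UMIs were summed over sets. CPM carries an exact Poisson interval, ratios an exact conditional binomial interval and shares a Clopper-Pearson interval, all at 95% and for counting error only. Where a set had no UMI of a gene, its ratio was bounded by a floor of 3 UMIs over that set, which is 1.16 CPM in ciliated and 0.130 CPM in other epithelial barcodes. The genes of the rule and *Epcam* were left out of list counts. Thinning to 2000 UMIs left out 5 AT1 gate barcodes. Doublets were called with Scrublet in scanpy 1.11.5 (expected rate 0.08) and kept: 13 of 190 ciliated (6.84%) and 203 of 1911 other epithelial barcodes (10.6%) were marked. Named genes are the list members, the 20 highest and 10 lowest ratios outside the lists with at least 100 UMIs over both sets and at least 50 CPM in the higher set, and the 15 genes with the most UMIs in ciliated barcodes. The members and lists were chosen with earlier results of these data known. Gene positions come from GENCODE release 21 for mouse on mm10 by identifier, with 30934 of 31055 found. Ratios and intervals were tested on simulated data. Python 3.11.15, numpy 2.4.6, scipy 1.17.1, pandas 2.3.3 and matplotlib 3.10.9 were used. Settings for the cell filter, the rule, the comparison set, doublets, scaling and the UMI minimum were varied.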

Additional observations from a re-analysis of the deposited data

Results flagged for a closer look

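Barcodes that met both gene thresholds but lay outside the comparisons also held the cilia programme. There were 99 with at least 1 UMI of *Col1a2*, in which *Foxj1* reached 379 CPM, against 523 CPM in the 190 ciliated barcodes and 0.779 CPM in other epithelial barcodes. Scrublet marked 41 of these 99 (41.4%). The 45 with exactly 1 *Col1a2* UMI had *Foxj1* at 530 CPM and the fibroblast gene *Dcn* at 29.6 CPM, and the 54 with more had 293 and 1892 CPM. A further 31 barcodes failed the filter, all through more than 10% mitochondrial UMIs, and had *Foxj1* at 558 CPM with a median of 5320 UMIs. Both were noticed because they carry a signal in barcodes that no comparison used, and the part of doublets or damaged cells in them was not tested.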

How the results depend on the processing

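No paired analysis was possible because the 4 samples are pooled in 1 matrix with no map from barcodes to samples, and for the same reason no sample could be left out. Of 1959 list counts and medians over 20 settings, 1721 stayed within the tolerance, 232 moved and 6 medians changed direction, and of 190 named genes past a fold limit, 169 kept their direction under every setting that gave a value. Against the club gate alone, 6261 of 9236 genes were at least 2-fold higher, 357 at most 0.5-fold and 75 at most 0.1-fold. There the median of all genes was 2.65-fold, and 2 cilia list members were at most 0.5-fold. The reported counts are 2927, 2737, 594 and 11 in that order. The tubulin median became 1.75 and the endothelial marker median 1.59 against this gate, both below the median of all genes. There *Cbr2* stood at 0.987-fold, *Cyp2f2* at 0.455, *Cldn18* at 2.08, *H2-Aa* at 1.81, *H2-K1* at 1.04, *Hspa1b* at 1.05, *Ptch1* at 1.94 and *Ttll7* at 1.78. Against the AT2 gate alone *Bpifa1* stood at 86.98-fold, *Igha* at 1.11 and *Igkc* at 1.66. Against the AT1 gate alone the cilia median was 18.9 in place of 28.4 and the mucosal defence median 1.21, with *Bpifa1* at 83.2-fold, *H2-Aa* at 1.12, *Lyz2* at 1.04, *Sftpc* at 1.197 and *Scnn1a* at 0.543. Against the equally weighted mean of the gates *Igha* was at 1.18 and *Igkc* at 1.37, while *Cd52* (3.11), *Cd79a* (7.10), *Coro1a* (15.98) and *Jchain* (3.39) have no UMI in ciliated barcodes, so these are upper limits set by the floor.

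With no limit on *Col1a2* and *Ptprc*, 188 genes were at most 0.1-fold, the tubulin median was 1.005, and *Lrrn4*, *Tubb2b* and *Upk3b* stood at 2.68, 1.23 and 1.90. With other epithelial barcodes limited to *Col1a2* and *Ptprc* at 0, 296 genes were at most 0.1-fold and 7 cilia list members at most 0.5-fold; with the 19 rich barcodes also left out, a combination chosen after seeing the data, 376 were at most 0.1-fold. With no filter beyond 1 UMI, 7456 genes counted as at least 2-fold and 2854 as at least 10-fold higher. The basal and neuroendocrine and the tuft and ionocyte medians became 2.89 and 3.34. Under this setting a gene with no UMI in ciliated barcodes stands at the floor of 3 UMIs and can count as higher though absent there. In ciliated barcodes 8 of the 10 basal and neuroendocrine markers had no UMI. By summed CPM both lists were lower there, at 1.16 against 7.96 and 9.25 against 98.7 CPM. The share of ciliated barcodes with a UMI followed depth: thinned to 1000 UMIs it was 38.4% for *Foxj1*, 53.7% for *Rsph1* and 33.7% for *Dnah5*, thinned to 2000 UMIs 64.2%, 80.5% and 61.6%, and as deposited 98.4%, 100% and 95.8%. Beyond what each setting changes by construction, the cause of these shifts was not tested.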

Other observations

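By UMIs in ciliated barcodes, and outside mitochondrial and ribosomal protein genes, the leading 15 genes included *Scgb1a1*, *Malat1*, a nuclear RNA (16900 CPM in ciliated and 20602 CPM in other epithelial barcodes), *Fth1*, a ferritin chain (7048 against 3630 CPM), *Cbr2*, *Fos* and *Wfdc2*, a secreted airway protein gene (4067 against 3253 CPM). *Tubb4b* was the only tubulin among them. The metallothionein gene *Mt1*, whose product binds zinc and copper, had 3392 CPM in ciliated and 408 CPM in other epithelial barcodes, 8.31-fold.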
